A study of Mus musculus with 9 samples.

Results

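The MHC class I presentation genes described here are 10 mouse genes, B2m, H2-K1, H2-D1, H2-T23, Tap1, Tap2, Tapbp, Erap1, Nlrc5 and Calr, out of 32976 genes in the count tables. They were listed by name and found by matching Ensembl identifiers to mouse symbols, and all 10 were matched; the rule uses no measured value, but the list was drawn up with earlier results of these data known. RNA was sequenced in 9 libraries from CD8+CD44+ T cells that had infiltrated subcutaneous CT26.WT tumors, a BALB/c colorectal carcinoma line, in wildtype mice, and that were sorted with a tetramer carrying the tumor peptide GSW11. All mice had received the PD-1 antibody RMP1-14 on days 3, 6 and 9, and there was no untreated group. TetHighProg held high avidity cells (bright tetramer staining) from progressing tumors, with 3 libraries numbered 1, 2 and 5. TetLowReg held low avidity cells from regressing tumors (6, 7 and 8), and TetLowProg held low avidity cells from progressing tumors (9, 10 and 12). The age of the mice was not given in the sources used here, and the labels do not tie libraries to mice. The study's text gives 3 regressing and 3 progressing tumors as the source of the 3 groups, so by that account TetHighProg and TetLowProg share the progressing tumors, but no source used here says which library came from which tumor.

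Nearly every nucleated cell shows peptides from its own proteins on MHC class I, and a CD8+ T cell both reads these complexes on other cells and carries them itself. A class I molecule is a heavy chain paired with the light chain beta-2 microglobulin. Peptides made by the proteasome are pumped into the endoplasmic reticulum by the Tap1 and Tap2 transporter, trimmed there by the aminopeptidase Erap1, and loaded with the help of tapasin (Tapbp) and calreticulin (Calr). Nlrc5 is the transactivator of class I genes. In mice H2-K1 and H2-D1 encode the classical heavy chains, and H2-T23 encodes the heavy chain of the non-classical molecule Qa-1.

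The control regions of class I genes are known for a kappa B site and an interferon response element upstream of an X and Y box module, through which Nlrc5 acts. To show how far the genes share these letters, the 250 bases before the annotated start were taken from RefSeq (build GRCm38.p6) for the 8 genes present in that table, and each window matched once in GRCm39. Capitals mark TGACG, the core of the X2 box, and ATTGG, which is the Y box core CCAAT read on the other strand. In B2m, H2-K1 and H2-D1 these lay 20 bases apart on the gene's strand.
B2m, chr2:121978090-121978119, plus strand: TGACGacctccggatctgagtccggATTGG
H2-K1, chr17:34219333-34219362, minus strand: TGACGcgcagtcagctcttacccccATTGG
H2-D1, chr17:35481969-35481998, plus strand: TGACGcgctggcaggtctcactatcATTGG
This pair at this spacing, on either strand, was present in 30 of the 32851 promoter entries of that table, cut to the same length (0.0913%). The stretch began 78 bases before the RefSeq start in B2m, 41 in H2-K1 and 101 in H2-D1. The canonical Ensembl transcripts of B2m and H2-D1 begin further upstream, so that there the stretch lies in the annotated first exon.

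The heavy chain genes also shared an upstream pair, in which capitals mark the kappa B letters GGNNTTCCC (N, any base) and the interferon response letters AANNGAAA read on the other strand.
H2-K1, chr17:34219404-34219431, minus strand: GGGATTCCCcatctccacagTTTCACTT
H2-D1, chr17:35481900-35481927, plus strand: GGGATTCCCcatctcctcagTTTCACTT
This pair was present in 4 of the 32851 entries (0.0122%). Searched alone on both strands, GGNNTTCCC was in the windows of 2 of the 8 genes (H2-K1 and H2-D1) against 4.99% of all entries, AANNGAAA in 5 (B2m, H2-K1, H2-D1, H2-T23 and Calr) against 21.3%, TGACG in 4 (B2m, H2-K1, H2-D1 and Tap1) against 17.8%, and CCAAT in 7 against 33.8%. The genome is that of C57BL/6 mice, and these letters were not read from the BALB/c mice sampled. The printed letters do not overlap each other, and in Calr those of CCAAT and AANNGAAA share 3 bases. These are matches of letters only, and no factor binding was measured.

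B2m lies on chromosome 2, Erap1 on 13, Nlrc5 and Calr on 8, and the other 6 genes on 17. The libraries held 16405306 to 36429515 gene counts each. Detection differed far more than depth, with 599 to 8071 genes found per library (at least 10 counts), and libraries 1, 2, 6 and 10 were below 1300 while 5, 7, 8, 9 and 12 were above 3000. Mitochondrially encoded genes took 44.5% of the counts in TetLowReg 7, 14.2% in TetLowReg 8 and 1.36% to 6.07% elsewhere. Of 12 T cell markers, 4 to 12 were found per library, Cd8b1 reached 8 counts in TetLowReg 6 and at least 1250 elsewhere, and Cd8a was at 0 in TetHighProg 1 and 2 and TetLowProg 10. The class II list (7 genes) took 4.76%, 3.93% and 6.06% of counts in TetLowReg 7, TetLowReg 8 and TetLowProg 12, and 0.148% or less in the other 6 libraries. At least 5 of 6 B cell markers were found in those same 3 libraries, against 1 (Ighm) in TetLowProg 9 and 0 elsewhere. Macrophage, monocyte and dendritic cell markers (12 genes) took 0.84% in TetLowReg 7 and at most 0.154% in the others, and NK cell markers were at 0 throughout. Of 5 erythroid genes, 3 were found in each of TetLowReg 7, TetLowReg 8 and TetLowProg 12 and 0 elsewhere. CT26 tumor and stroma markers (8 genes) took at most 0.0387%, in TetHighProg 1. Of 3 neutrophil markers, 2 were found in TetLowReg 7 and 0 elsewhere. A bulk library cannot tell fewer cells of a type from less RNA per cell.

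Class I message was found in every library, but most of the 10 genes were not found in every one. TetHighProg 1, 2 and 5 had 5, 1 and 8 of the 10 genes, TetLowReg 6, 7 and 8 had 3, 10 and 9, and TetLowProg 9, 10 and 12 had 10, 6 and 9. The group means were 4.67 ± 3.51, 7.33 ± 3.79 and 8.33 ± 2.08 (SD, n = 3 each), which overlapped. Without single libraries these means ran from 3 to 6.5, from 6 to 9.5 and from 7.5 to 9.5. B2m alone was found in all 9 libraries. H2-K1, H2-D1, H2-T23 and Tapbp were found in 7, Nlrc5 in 6, Tap2 and Calr in 5, and Tap1 and Erap1 in 4. The plot of detection sets these numbers against all genes, and libraries with more genes found had more class I genes in almost the same order. The mean log2(CPM + 1) of the 10 genes (CPM, the gene's share of all gene counts scaled to 1e+06) had a Pearson r of 0.91 with the log2 number of genes found over the 9 libraries, which is a description of libraries that share a protocol and differ in complexity.

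**Figure D1:**
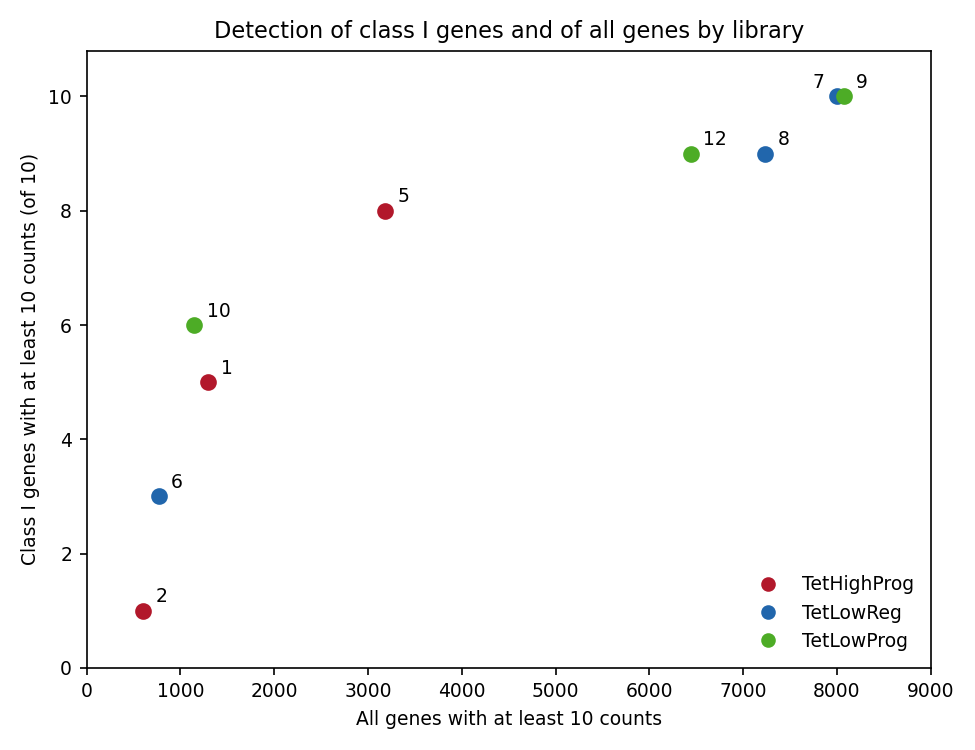
Number of the 10 class I genes with at least 10 counts (vertical axis) against the number of all genes with at least 10 counts (horizontal axis). Each point is a library, coloured by group and marked with its replicate number; TetHighProg 2 is lowest with 1 of the 10 genes and 599 genes, and TetLowReg 7 and TetLowProg 9 are highest with all 10 and 8004 and 8071 genes.

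As CPM per kilobase of the canonical transcript, the scale on which levels of different genes can be set side by side, the medians over the 9 libraries fell in the order B2m (1330), H2-D1 (545), H2-K1 (196), Tapbp (73.2), H2-T23 (27.2), Nlrc5 (2.90), Calr (0.643), Tap2 (0.138), Erap1 (0.0161) and Tap1 (0.0127). The last 4 of these medians were set by libraries where the gene was close to 0, and among libraries where a gene was found its highest CPM was 8.28 (B2m) to 549 (Tap2) times its lowest. Together the 10 genes took 0.369%, 0.806% and 0.382% of gene counts in TetHighProg 1, 2 and 5, 0.235%, 0.328% and 0.294% in TetLowReg 6, 7 and 8, and 1.67%, 0.298% and 0.958% in TetLowProg 9, 10 and 12. The 95% Clopper-Pearson intervals of these shares were at most 0.00834 percentage points wide and, like all intervals here, cover counting error only. The sums averaged 5189 ± 2490 CPM in TetHighProg, 2859 ± 469 in TetLowReg and 9755 ± 6867 in TetLowProg (SD, n = 3 each). The TetLowProg mean was 6278 CPM without TetLowProg 9, and without H2-K1 and H2-D1 it was below that of TetHighProg. TetLowProg had both the highest library and one near the lowest, and it overlapped both other groups. Every TetLowReg library was below every TetHighProg library on this scale.

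**Figure D2:**
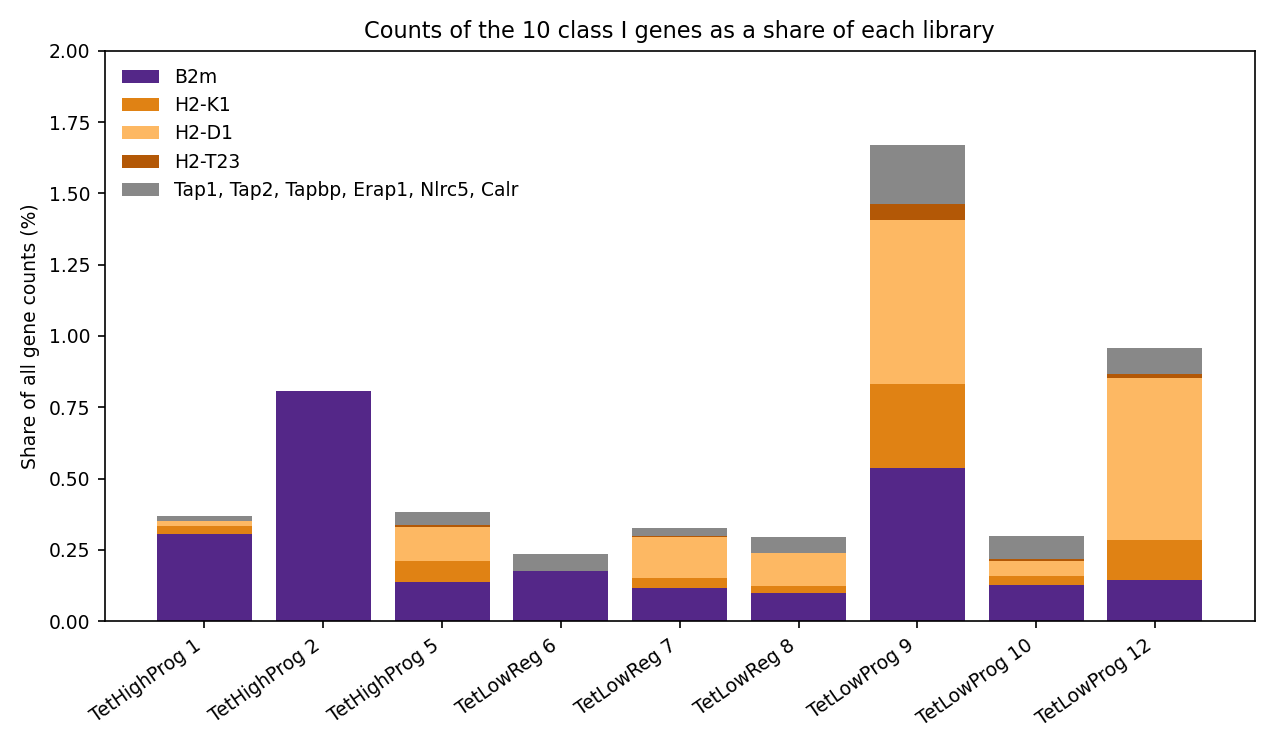
Share of all gene counts (%) taken by the 10 class I genes in each library, stacked by B2m, the 3 heavy chain genes and the other 6 genes together, with no correction for transcript length. TetLowProg 9 (1.67%) and TetLowProg 12 (0.958%) are tallest and mostly heavy chain, while TetHighProg 2 (0.806%) is B2m almost alone.

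B2m, the invariant light chain that every class I heavy chain needs, was the steadiest of the 10. It stood at 3041, 8062 and 1384 CPM in TetHighProg 1, 2 and 5, at 1753, 1174 and 973 in TetLowReg 6, 7 and 8, and at 5372, 1253 and 1445 in TetLowProg 9, 10 and 12. The highest library was 8.28 times the lowest, a smaller span than for any other of the 10 genes even among the libraries where those were found. B2m ranked between 7th and 240th of all genes by counts, not corrected for length, in every library, including the 4 with under 1300 genes found. No window of 36 bases in its transcript occurred in a transcript of another gene. The means were 4162 ± 3477, 1300 ± 405 and 2690 ± 2325 CPM in TetHighProg, TetLowReg and TetLowProg (SD, n = 3 each), and in no comparison did the groups separate.

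The heavy chain genes varied much more than the light chain. H2-K1 stood at 302, 0.118 and 711 CPM in TetHighProg 1, 2 and 5, at 0.318, 354 and 253 in TetLowReg 6, 7 and 8, and at 2954, 318 and 1398 in TetLowProg 9, 10 and 12. TetHighProg 2 held 3 reads of it and TetLowReg 6 held 7, beside 204162 and 38632 reads of B2m. H2-D1 stood at 158, 0.0790 and 1213 CPM in TetHighProg, at 0, 1422 and 1154 in TetLowReg, and at 5755, 551 and 5675 in TetLowProg, in the same order of libraries. The same libraries, TetHighProg 2 and TetLowReg 6, lacked both classical heavy chains, with 2 and 0 reads of H2-D1. A count of 0 allowed up to 3 counts, which is 0.0824 to 0.183 CPM depending on the library.

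H2-T23, the Qa-1 heavy chain whose complex is read by NKG2 receptors, had a lower mean than H2-K1 and H2-D1 in each group, per kilobase of transcript too. It stood at 1.71, 0.0395 and 51.1 CPM in TetHighProg 1, 2 and 5, at 0, 40.0 and 28.0 in TetLowReg 6, 7 and 8, and at 563, 56.4 and 165 in TetLowProg 9, 10 and 12. Every TetLowProg library was above every library of the other groups, but TetLowProg 10 was above TetHighProg 5 only by 56.4 against 51.1 CPM. With 3 libraries against 3 an exact two-sided permutation test cannot go below p = 0.1, the value H2-T23 reached against each group. TetLowProg 9, which had the highest H2-K1, H2-D1 and H2-T23, held class II at 0.0113% of counts and 1 of the 6 B cell markers. TetLowProg 12, next highest in all 3 genes, held class II at 6.06% and all 6 B cell markers, and their part in these levels was not tested.

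The balance of heavy and light chain message differed between libraries. H2-K1 and H2-D1 together, without H2-T23, had 0.0932, 1.49e-05 and 0.794 times the B2m level per kilobase in TetHighProg 1, 2 and 5. The ratio was 0.000122, 0.824 and 0.783 in TetLowReg 6, 7 and 8, and 0.918, 0.396 and 2.66 in TetLowProg 9, 10 and 12. It was above 0.75 in each of the 5 libraries with over 3000 genes found and below 0.4 in each of the other 4. TetLowProg 12 was the only library in which H2-K1 and H2-D1 together exceeded B2m. Per kilobase, H2-D1 was 0.399 times H2-K1 in TetHighProg 1 and 1.30 to 3.49 times H2-K1 in the other 6 libraries that held both.

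Reads of these heavy chains are less certain than those of B2m. Of the 36-base windows of the canonical transcript, 17.9% of H2-K1, 23.7% of H2-D1 and 44.0% of H2-T23 also occurred in a transcript of a gene elsewhere, most often H2-D1, H2-K1 and H2-T11-ps, and for 75-base windows the shares were 1.55%, 7.05% and 15.2%. Reads placed at several sites were left out of the counts. BALB/c mice carry the H2d haplotype and the reference carries H2b, so that allele differences can also move reads among these genes or off them, to an extent that was not tested.

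The peptide transporter was seen in few libraries. Tap1 had 0, 1 and 0 reads in TetHighProg 1, 2 and 5, 0, 365 and 301 in TetLowReg 6, 7 and 8 (10.02 and 18.3 CPM in the last 2), and 12758, 0 and 11857 in TetLowProg 9, 10 and 12 (351 and 376 CPM in 9 and 12). Summed over a group, Tap1 took 724 times the share of counts in TetLowReg that it took in TetHighProg (95% counting interval 129.5 to 28648), and 21555 times in TetLowProg (3868 to 851402), and both ratios rest on the 1 read in TetHighProg. Each low avidity group still held a library without any Tap1 read, so the groups overlapped. Tap2, the partner subunit, had 0, 0 and 223 reads in TetHighProg, 0, 20 and 26 in TetLowReg, and 10960, 0 and 166 in TetLowProg. TetLowProg 9 held most of all Tap2 reads, and TetHighProg 5, which had no Tap1, held the next most. Tap2 overlaps 2 genes on the other strand, Gm20496 and Gm15821, and in TetHighProg 5 the unstranded count was 0.192 of the sum of the strand columns, and in TetLowProg 9 it was 0.600 of that sum, so its level is uncertain in both. Tap1 overlaps the immunoproteasome gene Psmb9 at one end, by 743 bases.

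The loading factors differed from each other in where they appeared. Tapbp, which bridges the transporter and the empty class I molecule, stood at 0, 0 and 243 CPM in TetHighProg 1, 2 and 5, at 578, 74.7 and 123 in TetLowReg 6, 7 and 8, and at 544, 799 and 218 in TetLowProg 9, 10 and 12. It was found in all 6 low avidity libraries and in 1 of 3 high avidity ones, and it was high in TetLowReg 6 and TetLowProg 10, where few genes were found. Tapbp shares 923 bases with Zbtb22 on the same strand, and reads there were not assigned to either gene. Calr, the chaperone that holds class I molecules for loading, had 0, 1 and 0 reads in TetHighProg, 0, 1449 and 5026 in TetLowReg (39.8 and 306 CPM in the last 2), and 20034, 37 and 9023 in TetLowProg (551, 1.47 and 286 CPM). It was the only member with at most 1 read in each TetHighProg library and more in each TetLowProg library. Summed over a group, Calr took 7041 times the TetHighProg share in TetLowReg (95% counting interval 1263 to 278152) and 25477 times in TetLowProg (4572 to 1006318), again against 1 read. Reads of Tap1 and Calr above 100 counts came from TetLowProg 9 and 12 and TetLowReg 7 and 8. TetLowReg 7, TetLowReg 8 and TetLowProg 12 held class II at 3.93% to 6.06% of counts with B cell markers, while TetLowProg 9 held class II at 0.0113%, and the part of other cell types in these levels was not tested.

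Erap1 and Nlrc5 were each found in all groups, in 4 and 6 libraries, of which TetHighProg 5, TetLowReg 7 and TetLowProg 9 held both. Erap1, which trims peptides to the length that class I holds, stood at 0.0599, 0 and 8.95 CPM in TetHighProg 1, 2 and 5, at 0.0907, 126 and 87.2 in TetLowReg 6, 7 and 8, and at 114, 0 and 0.0317 in TetLowProg 9, 10 and 12. TetLowProg 12 held 1 read of it among 31501244 counts, although 9 of the 10 class I genes were found there. Nlrc5 stood at 184, 0 and 198 CPM in TetHighProg, at 22.0, 38.7 and 0.0610 in TetLowReg, and at 205, 0 and 6.89 in TetLowProg. Nlrc5 was highest in TetLowProg 9, as were H2-K1, H2-D1 and H2-T23, and it was at 0 in TetHighProg 2, which had 3 and 2 reads of H2-K1 and H2-D1. By contrast, TetLowReg 8 had 1 read of Nlrc5 with H2-D1 at 1154 CPM, and TetHighProg 1 had 6135 reads of Nlrc5 with H2-D1 at 158 CPM. Erap1 overlaps Cast on the other strand by 835 bases.

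**Figure D3:**
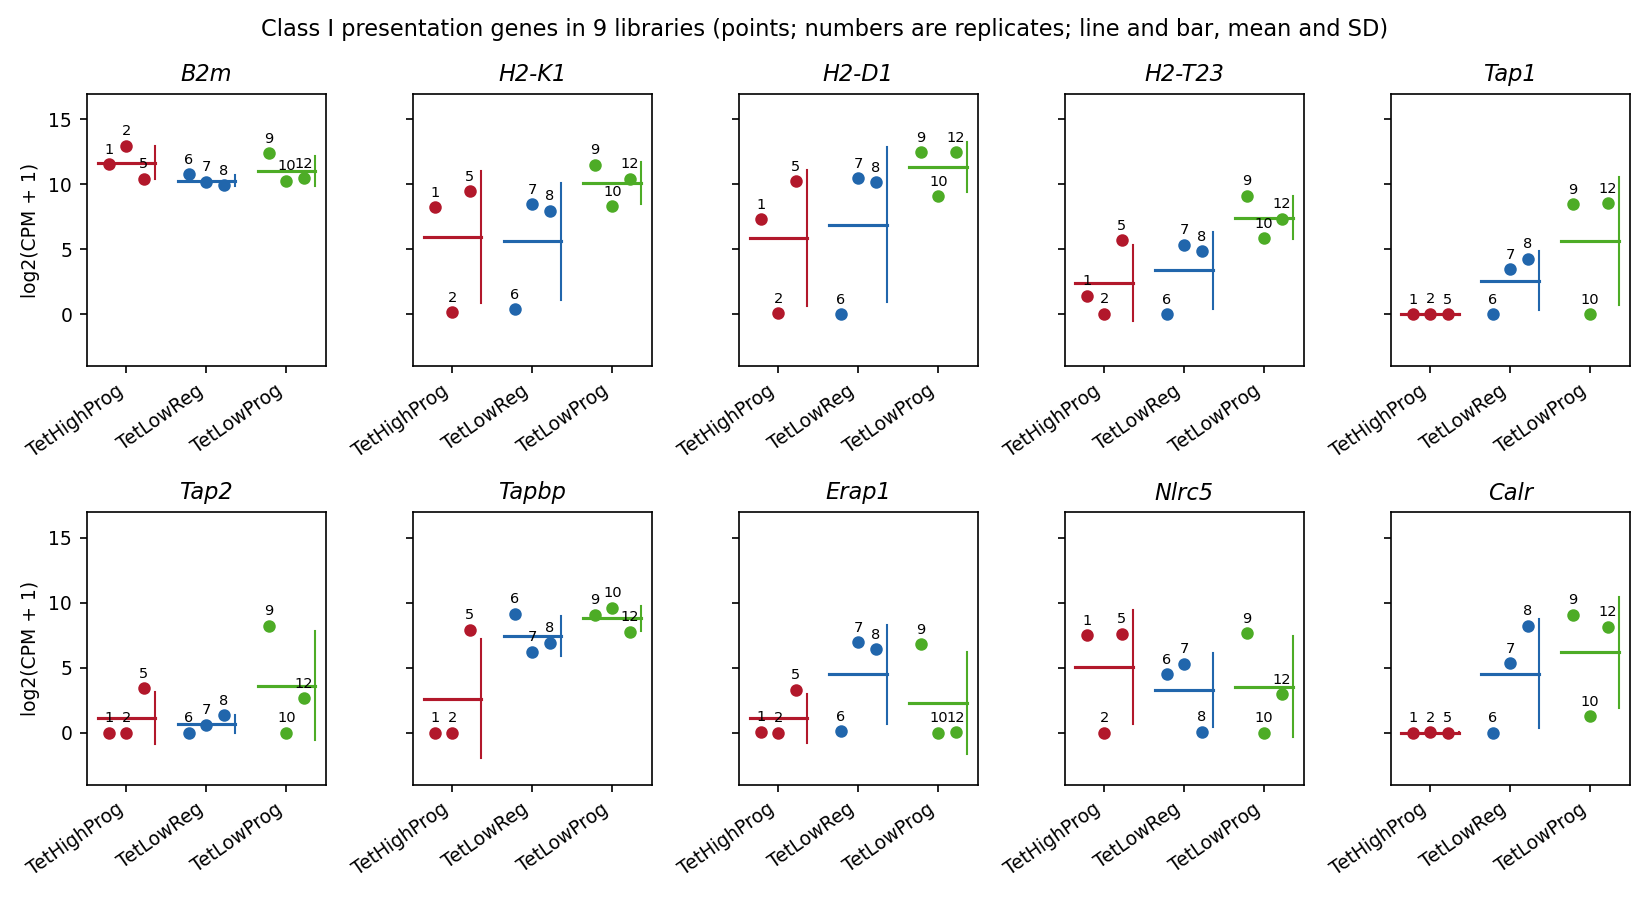
Level of each class I gene as log2(CPM + 1) in the 9 libraries, 1 panel per gene, with points for libraries (replicate number above), a line for the group mean and a bar for the SD. B2m stays near the top in all libraries, whereas the other 9 genes fall to or near 0 in at least 2 libraries, and Tap1 and Calr are at the bottom in all 3 TetHighProg libraries.

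The design compares low with high avidity cells, in regressing and in progressing tumors, and low avidity cells between regressing and progressing tumors. The 3 comparisons share libraries, so their values are not independent of each other. TetLowProg and TetHighProg were fitted as independent groups although by the study's account they share tumors. Genes were tested with the quasi-likelihood test of edgeR, which kept 5813 genes and all 10 class I genes, and calls needed an absolute log2 fold change of more than 2 together with an adjusted p (Benjamini-Hochberg) below 0.05. None of the 10 genes was called in any comparison, where the share of all genes called was 0%. The fitted fold changes of Tap1 and Calr against TetHighProg, where each had 1 read in all, depend on the prior count, and the ratios with their counting intervals above give the size instead. SEs are derived from the fold change and the F statistic.

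In TetLowReg against TetHighProg, Calr and Tap1 had the largest log2 fold changes, 10.58 (SE 5.37, adjusted p = 0.233, edgeR) and 7.12 (SE 4.72, adjusted p = 0.309, edgeR), and B2m the opposite sign at -1.95 (SE 2.12, adjusted p = 0.61, edgeR). The value of B2m rested largely on TetHighProg 2, without which it was -0.44. Of the 10 fold changes 7 were positive and 3 (B2m, Tap2 and Nlrc5) negative, beside 72.7% positive among all genes. Their median was 1.45, against 3.52 over all genes tested, in a comparison whose TetHighProg libraries had 599 to 3181 genes found. Some signs turned with the setting. Tap2 was 3.83 without TetHighProg 5 and 4.72 with limma-voom. In the 5 libraries with over 3000 genes found, B2m was 0.40 and Tapbp -0.63. Calr, which was higher in 2 of 3 TetLowReg libraries than in any TetHighProg library, alone had an unadjusted p under 0.05, beside 19% of all genes higher and 0.516% lower at that threshold. No class I gene was higher or lower in every library of one group, which 4.8% and 0.998% of all genes were. H2-K1, with a fold change of 0.01 (SE 2.89), had a lower mean CPM in TetLowReg (202 against 338), and its sign changed with the scaling of the libraries.

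In TetLowProg against TetHighProg, 8 genes had positive fold changes, and B2m and Nlrc5 negative ones. Without TetLowProg 9, Tap2 was -0.047 and Erap1 -4.77, and Nlrc5 was 0.17 with DESeq2 and 2.25 with limma-voom. The log2 fold changes were 1.96 for H2-K1, 3.04 for H2-D1 and 3.67 for H2-T23 (SE 3.00, 2.56 and 4.65, edgeR adjusted p = 0.77, 0.451 and 0.69). Calr reached 11.12 (SE 5.51, adjusted p = 0.193, edgeR) and Tap1 11.03 (SE 5.87, adjusted p = 0.197, edgeR). Without TetHighProg 5 the value of H2-D1 was 5.19 and that of H2-T23 7.43, and without TetHighProg 2 that of H2-K1 was 1.27. B2m stood at -1.59 (SE 2.09) and Nlrc5 at -1.38 (SE 4.34). B2m was -0.24 without TetHighProg 2 and -0.77 without TetLowProg 12, and Nlrc5 was -4.96 without TetLowProg 9 and -0.39 without TetLowProg 12. The share of positive fold changes was 8 of 10, beside 73.5% of all genes, with a median of 3.13 against 4.27. Calr was the only one of the 10 with an unadjusted p under 0.05, beside 24.8% of all genes higher and 0.55% lower. Calr and H2-T23 were higher in every TetLowProg library than in every TetHighProg one, which held for 6.67% of all genes.

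In TetLowProg against TetLowReg, 9 of the 10 fold changes were positive, beside 55.5% of all genes (7 of 10 without TetLowProg 9, where B2m, Nlrc5 and Erap1 were negative), and none was past the threshold or had an unadjusted p under 0.05, which 0.43% of all genes had in the higher and 0.499% in the lower direction. The largest were 6.02 for Tap2 (SE 5.23) and 3.90 for Tap1 (SE 4.76), and Erap1 was at -2.15 (SE 4.51), each with an edgeR adjusted p that rounds to 1. Without TetLowProg 9, Tap2 was 1.51 and Erap1 -10.11, and without TetLowReg 7 Erap1 was -0.54. The median was 1.07, against 0.35 over all genes. When libraries were scaled by their totals alone, the median of all genes was 1.23. Class I values moved too, as for H2-D1 from 1.34 to 2.29 and B2m from 0.36 to 1.15, so that 1.07 and 1.23 belong to different scalings. H2-T23 was higher in every TetLowProg library than in every TetLowReg one, which 2.77% of all genes were, while 0.654% were lower in every one. Its mean was 262 ± 267 CPM in TetLowProg, 22.7 ± 20.5 in TetLowReg and 17.6 ± 29.0 in TetHighProg (SD, n = 3 each), and the last 2 groups overlapped.

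**Figure D4:**
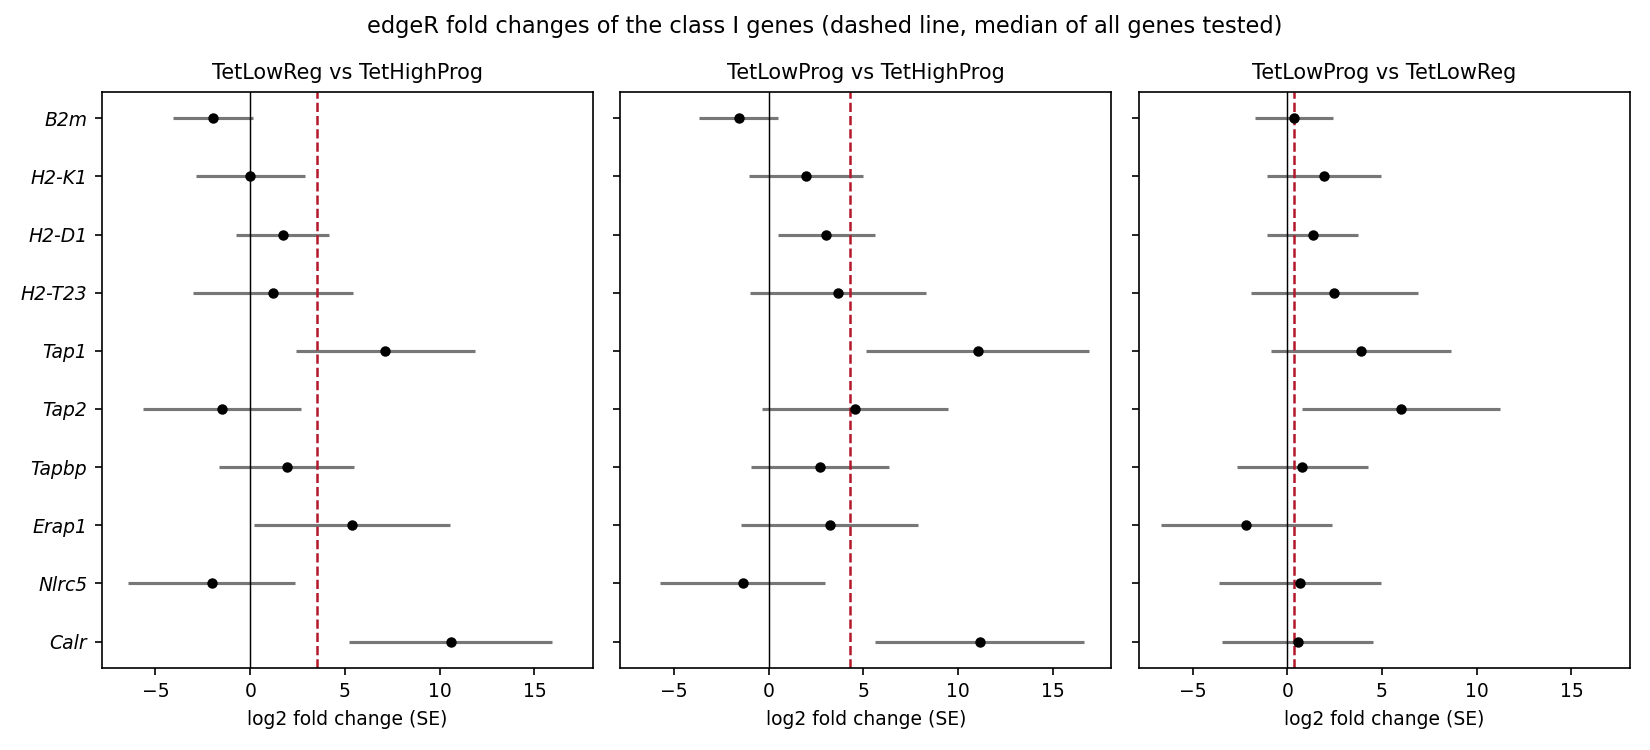
edgeR log2 fold changes (points) with SE (bars) of the 10 class I genes in the 3 comparisons, with a solid line at 0 and a dashed line at the median of all 5813 genes tested. The dashed line is at 3.52, 4.27 and 0.35, and the points to its right by more than 1 SE are Calr in the first panel, Calr and Tap1 in the second and Tap2 in the third. Those to its left by more than 1 SE are B2m, H2-K1, Tap2 and Nlrc5 in the first panel, B2m and Nlrc5 in the second and none in the third.

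The tools differed in what they called. DESeq2, the tool of the study's methods, called Calr and Tap1 higher in TetLowReg than in TetHighProg, 2 of 9 class I genes with an adjusted p, beside 34.1% of all genes (33.6% with those groups alone), and the same 2 genes higher in TetLowProg, beside 42.7% (45.7% alone). By contrast, limma-voom with sample weights called Calr, Tap1, Erap1 and Tapbp higher in TetLowReg (4 of 10, beside 41.3% of all genes). It called 7 of 10 higher in TetLowProg than in TetHighProg (beside 49.6%), namely Calr, Tap1, Tap2, Tapbp, H2-K1, H2-D1 and H2-T23. Neither tool called any of the 10 between the low avidity groups, where DESeq2 called 1.52% of all genes higher (0.189% alone). A fit of the 5 libraries with over 3000 genes found, a choice made after seeing the data, leaves TetHighProg 5 alone in its group. TetHighProg 5 held 0 reads of Tap1 and Calr, so their fitted fold changes there depend on the prior count and are not given, and the lone library is assumed to vary like the others. The fold change of B2m there was 0.40 in TetLowReg and 1.01 in TetLowProg against that library.

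The wider class I pathway was read from a list of 52 further genes, of which 51 were in the tables and 40 were tested, and edgeR called none of them. In TetLowReg against TetHighProg 23 of the 40 fold changes were positive, beside 72.7% of all genes, and the median was 0.12. In TetLowProg against TetHighProg 27 were positive, beside 73.5%, with a median of 0.89. Between the low avidity groups 30 were positive, beside 55.5%, with a median of 0.82, and the medians of all genes are those given above. At an unadjusted p under 0.05, 3 of the 40 were higher in TetLowReg than in TetHighProg (Psme3, Nfyc and Jak2), beside 19% of all genes. Against TetHighProg, 1 was higher in TetLowProg (Jak2), beside 24.8% of all genes, and between the low avidity groups there were 0, beside 0.43% of all genes higher and 0.499% lower.

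Other heavy chains, of the Q region, were also highest in TetLowProg 9 and 12. H2-Q4, H2-Q6, H2-Q7 and H2-Q10 were highest in TetLowProg 9 (210, 425, 115 and 259 CPM) and next highest in TetLowProg 12 (107, 402, 106 and 153 CPM), and H2-Q2 likewise (125 and 60.9 CPM). In TetLowReg 6 these 5 genes had 0 to 40 reads. In TetHighProg 2, H2-Q6 and H2-Q7 had 5639 and 1966 reads, where H2-K1 and H2-D1 were not found. Among all 11 tested class I and class I like chains of the list, which also include M and T region genes, 11 fold changes were positive in TetLowProg against TetLowReg, beside 55.5% of all genes, with none past the threshold. Against TetHighProg, 7 of the 11 were positive in TetLowReg, beside 72.7%, and 10 of the 11 in TetLowProg, beside 73.5%. Reads of these close relatives are hard to tell apart.

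Chaperones outside the list of 10 were seen where Calr was not. Canx, the membrane-bound relative of Calr, was found in all 9 libraries at 29.8 to 810 CPM, with 621 CPM in TetHighProg 1, where Calr had 0 reads. Pdia3, the thiol oxidoreductase of the loading complex, stood at 3374 CPM in TetHighProg 1 and 896 CPM in TetHighProg 5, and Pdia6, a relative, at 1768 and 2.82 CPM in the same libraries. Both had at most 1 read in TetHighProg 2 and TetLowReg 6. Psme2, part of the PA28 proteasome activator, and Pomp, which helps assemble the proteasome, were highest in TetHighProg 2 (2708 and 2377 CPM), the library with 1 class I gene found, and at 0 in TetLowReg 6 and TetLowProg 10.

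Irf1, a transcription factor that binds interferon response elements, ranged from 0 in TetHighProg 2 and TetLowProg 10 to 1006 CPM in TetLowProg 9. Of the interferon gamma path, the receptor chain Ifngr1 ranged from 1 read in TetLowReg 6 to 1546 CPM in TetLowProg 12, and the kinase Jak1 from 1 read in TetLowReg 6 to 6394 CPM in TetLowProg 10. These genes were named because each was found in at least 7 libraries.

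Among all genes tested outside the 10, the 5 whose log2(CPM + 1) was most like the mean of the class I genes over the 9 libraries were Tcf25 (Pearson r 0.956), Rpl41 (0.953), H2-T9 (0.945), Rpl12 (0.938) and Sf1 (0.935). The median over all tested genes was 0.68, and these libraries share the differences in genes found described above. H2-T9 was also the gene that most often shared 75-base windows with H2-T23, and the part of shared reads in its likeness was not tested. Single class I genes were less like the number of genes found, with r from 0.61 to 0.87 for H2-K1, H2-D1, H2-T23, Tap1, Tap2, Erap1 and Calr, 0.40 for Tapbp, 0.26 for Nlrc5 and -0.38 for B2m.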

How the data were processed

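The authors prepared Smart-seq2 libraries from sorted cells by cDNA pre-amplification and tagmentation, without molecular identifiers, and aligned reads to GRCm39 with STAR 2.7.6a. The deposited values are raw counts of reads per gene, 1 table per library. The submitters' notes name featureCounts, while the tables have the layout of STAR gene counts, and which annotation release was used is not given in the sources used here. Multimapping reads (7.51% to 14.5% of a library) and reads on overlapping genes (1.05% to 1.96%) were left out of totals, as were reads outside genes. The unstranded column was used, so antisense partners cannot be told apart. GENCODE M39 gave symbols for 28645 of 32976 genes, coordinates and canonical transcript lengths.

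Counts were tested with edgeR 4.0.16 in R 4.3.3 (glmQLFTest, TMM, filterByExpr, prior count 2, 3 groups in one model, two-sided), where the study's tool was DESeq2. DESeq2 1.42.0, limma-voom (limma 3.58.1), other scalings and filters, summed strand columns and leaving out each library were alternatives, and the code was tested on simulated data. CPM used the total of gene counts, with a pseudocount of 1 on the log2 scale. Members and lists were chosen with earlier results of these data known. All 10 members were named in every library, and of the pathway list those with at least 10 counts in at least 7 libraries, except 1 that is not reported here. The pathway genes named for an unadjusted p were chosen after their values were seen. Alternative calls are named likewise.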

Additional observations from a re-analysis of the deposited data

How the results depend on the processing

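Direction and call were kept by 465 of 506 alternatives for the class I fold changes, 19 passed the threshold where edgeR did not, and 22 reversed, in 12 of 30 results. The tool moved counts most. In TetLowReg against TetHighProg DESeq2 called 1841 genes and 2 class I genes (1131 and 2 with those groups alone), limma-voom 2411 and 4, edgeR on those groups alone 2 (Cd74 and mt-Cytb), and edgeR on the 5 libraries with over 3000 genes found 3 (Dnase1l3, H2-Aa and H2-Eb1). In TetLowProg against TetHighProg DESeq2 called 2370 and 2 (1987 and 2 alone), limma-voom 2901 and 7, library size in place of TMM 1 and edgeR on those groups alone 1 (ENSMUSG00000098178 in both), and the 5 libraries 3 (Dnase1l3, H2-Aa and H2-Eb1). Between the low avidity groups DESeq2 called 83 (11 alone) and edgeR alone 1 (mt-Cytb). Leaving out a library gave 0 to 4 genes in the first comparison (4 without TetLowProg 9), 0 in the second and 0 to 2 in the third (1 without TetHighProg 2, 2 without TetLowProg 12), and 0 class I genes in each.

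The median log2 fold change of all genes in the first comparison was 3.52 with TMM and 3.05 with library size. It was 5.28 with DESeq2 and 6.34 with limma-voom, which change the model, the weights or the genes tested as well. Reversed values in the first comparison were, for H2-K1, -0.72 with library size, -0.090 and -0.48 with DESeq2 on 3 groups and alone, -0.29 without the low count filter, -0.0027 with strand columns summed, -0.44 in the 5 libraries and -1.10 to 0.91 without single libraries. B2m was 0.40 and Tapbp -0.63 in the 5 libraries, and Tap2 was 4.72 with limma-voom and -2.35 to 3.83 without single libraries (3.83 without TetHighProg 5). In the second, B2m was 1.01 in the 5 libraries, Nlrc5 0.17 with DESeq2 and 2.25 with limma-voom, Tap2 -0.047 to 9.65 and Erap1 -4.77 to 7.66 without single libraries (both lowest without TetLowProg 9). In the third, without single libraries, B2m was -0.21 to 0.93, Nlrc5 -3.04 to 2.67 (both lowest without TetLowProg 9), Tapbp -0.14 to 1.69 (lowest without TetLowProg 10) and Calr -0.14 to 2.83 (lowest without TetLowReg 6). With strand columns summed Tap2 moved from -1.48 to -3.62 in the first comparison and from 4.54 to 2.91 in the second. The cause was not tested.

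The summed level in TetLowReg moved from 2859 CPM to 3680 with TMM effective sizes, 3911 without mitochondrially encoded genes and 1798 without H2-K1 and H2-D1, and to 2649 to 3112 without single libraries. Without H2-K1 and H2-D1 the TetLowProg mean went from 9755 to 4205 CPM, below that of TetHighProg (5189 to 4394), which turns the order of these means, and with TMM effective sizes they were 7494 and 6861. The means of TetHighProg and TetLowProg were 3752 to 5940 and 6278 to 13143 without single libraries. Adjusted p ranged over alternatives from 0.00103 to 0.477 for Calr and 0.034 to 0.478 for Tap1 in TetLowReg against TetHighProg, and from 9.0e-05 to 0.917 and 0.000583 to 0.445 in TetLowProg against TetHighProg. No paired analysis was possible because no replicate number occurs in more than 1 group. By the study's account TetHighProg and TetLowProg share progressing tumors, but no source used here maps libraries to tumors. Some genes were not kept by a filter in fits of 2 groups alone and have no value there.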
